A study of Mus musculus with 23 samples.

Results

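The mammary fat pads described here are the 12 of 23 tumor-bearing pads whose RNA held almost none of the lymph node that lies inside this depot. They were selected on 1 measured value, the level of Glycam1, a mucin made by the vessels through which lymphocytes enter a lymph node (ENSMUSG00000022491, GRCm38 chromosome 15, 103562759 to 103565081), at below 10 CPM (counts per 1000000 counts of the library). The choice left 3 lean and 9 obese libraries, against 7 lean and 4 obese libraries with node RNA. The highest Glycam1 value inside the limit was 0.499 CPM (obese IgG2a 5) and the lowest outside was 116 CPM (lean anti-PD-1 5), so no library lay near it. These levels describe the choice and were not tested.

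All mice were female C57BL/6J with 250000 E0771-luciferase cells, a mammary carcinoma line of the same strain, placed with Matrigel in mammary gland 4, and the fat beside the tumor was sequenced. Obese mice ate food with 60% of its energy as fat from 8 to 26 weeks of age. Lean mice are labelled as fed 10% of energy as fat. The protocol given with each library, lean ones included, describes the high-fat food alone. From day 3 to day 21 each mouse received 200 µg of an antibody into the abdomen every 3 days, either anti-PD-1, directed at a brake receptor on T cells, or its IgG2a isotype control. The lean node-free pads are anti-PD-1 2, anti-PD-1 4 and IgG2a 5, and the obese ones are anti-PD-1 1, 2, 5, 6, 7 and 8 and IgG2a 2, 4 and 5. Both diets thus had 1 IgG2a pad for every 2 anti-PD-1 pads, and the antibodies were pooled. The labels give each library a code of its own and do not state which animal it came from, so p-values measure the spread between these libraries. The numbers after the group names follow the order of deposit and pair nothing.

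White fat stores triglyceride, makes part of its own fatty acids from sugar, and releases hormones such as leptin and adiponectin that report on its size. When fat cells enlarge in obesity, macrophages gather around dying cells and the matrix between cells is rebuilt. A lymph node in the same piece of tissue adds B and T cells in numbers that hide those of the resident immune cells.

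Libraries held 49438121 to 77369057 estimated counts over the series. Between lean and obese node-free pads the totals gave p = 0.291 and the number of genes with at least 10 counts p = 0.0818 (exact permutation tests, two-sided, where 220 assignments allow no p below 0.00909). Lean anti-PD-1 4 had the fewest such genes, 14806. The defining fat cell genes were high in all 12 pads: the lowest Adipoq level was 996 CPM and the lowest Plin1 level 628 CPM, both in obese IgG2a 5. The B cell list summed to at most 31.4 CPM, against at least 422 in the pads with a node. Other tissues were present unevenly. Skeletal muscle genes summed to 3251 CPM in lean anti-PD-1 2, to 5.15 and 17.4 CPM in the other lean pads and to 17.5 to 78.9 CPM in obese pads. Mammary epithelium genes summed to 1780 to 5356 CPM in lean and 467 to 2586 CPM in obese pads. Cell cycle genes (968 and 1255 CPM), and genes high in invasive carcinoma cells (455 and 526.3 CPM), stood apart in obese IgG2a 2 and 5, where the other obese pads had at most 189 and 112 CPM. Liver genes summed to 11380 CPM in obese IgG2a 5 and to at most 228 in the others.

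**Figure D1:**
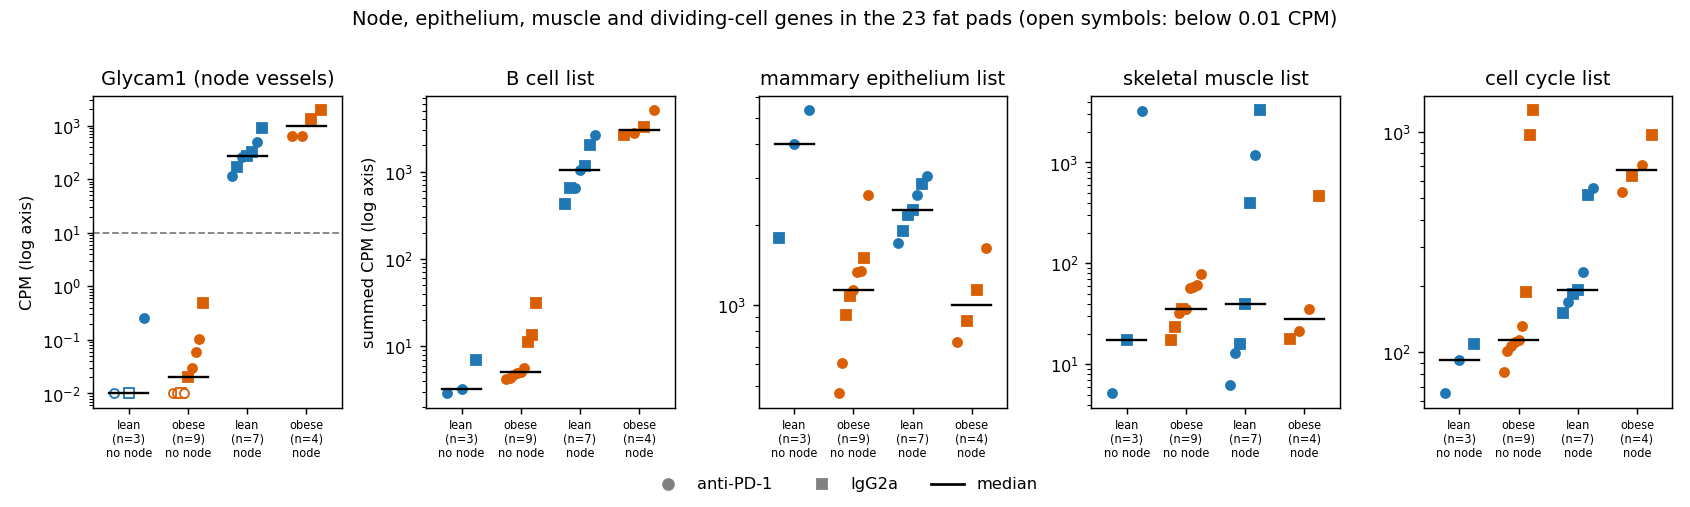
Glycam1 (CPM) and the summed CPM of 4 gene lists in each of the 23 libraries, by diet and by presence of node RNA, on log axes. Points are libraries, offset sideways in order of value, circles are anti-PD-1 and squares IgG2a, black bars are medians and the dashed line is the 10 CPM limit. Node genes separate the sets by construction, the epithelium sum reaches 5356 in a lean and at most 2586 in an obese node-free pad, and the muscle sum is high in 1 node-free library.

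The first comparison asked what differed with obesity in fat that holds no node. Every obese mouse ate the 60% fat food and lean mice are labelled as fed 10%. Obesity and the food eaten therefore cannot be told apart here. Fatty acid synthesis genes fell together and steeply, and so did most genes of thermogenic (heat-producing) fat and of mitochondrial respiration. Genes that track enlargement of the fat depot rose, while adiponectin and perilipin levels overlapped between diets. Of 19067 genes tested, 3071 passed (edgeR quasi-likelihood test, Benjamini-Hochberg adjusted p under 0.05, here "called"). As shares of all genes tested, 8.00% were called higher and 8.10% lower. The median log2 fold change over all genes tested was 0.15, the level beside which each list median below stands. A pair of settings removed most calls: in the IgG2a pads alone, with 1 lean library, 4 genes passed, and with the epithelium score as a covariate 170 passed.

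Acly (ENSMUSG00000020917, GRCm38 chromosome 11, 100476353 to 100528000) makes the cytosolic acetyl-CoA from which fatty acids are built. It stood at 2836, 5399 and 4652 CPM in lean anti-PD-1 2, lean anti-PD-1 4 and lean IgG2a 5, an order kept for the lean values below. In obese pads it ran from 107 through a median of 182 to 259 CPM. The groups were far apart, and Acly fell by 4.86 on the log2 scale (SE 0.286, adjusted p = 4.4e-07). Aacs, which activates acetoacetate for lipid synthesis, had lean values of 516, 429 and 620 CPM and obese values from 57.3 (median 75.2) to 86.4. It had the smallest error of the list and fell by 3.12 (SE 0.159, adjusted p = 1.4e-07).

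Acacb, the carboxylase at the mitochondrial surface, fell by 4.01 (SE 0.253), with lean pads at 791, 890 and 722 CPM and no obese pad above 79.9 CPM. Slc2a5, a fructose carrier, was at 48.8, 121 and 102 CPM in lean pads and between 0 and 0.490 CPM in obese pads (log2 fold change -9.25, adjusted p = 2.8e-05). Of the 19 fatty acid synthesis genes tested 18 fell and none rose, with a median of -3.47. Leaving out any 1 library left 15 to 19 of them called. The exception was the desaturase gene Fads2 (-1.45, adjusted p = 0.20), which was 83.1 CPM in obese IgG2a 5 and at most 21.1 in the other obese pads. With the epithelium score as a covariate 11 members stayed called, and the list median was -3.65.

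Because these genes fell together, the 250 bases before the RefSeq start (GRCm38.p6) are shown for 3 of them, of which Fasn and Thrsp were chosen after their values were seen. Fasn encodes fatty acid synthase and fell by 4.34. Thrsp encodes a lipogenic nuclear protein and fell by 4.93. Sequences read 5′ to 3′ on the gene's strand, with CCAAT in capitals (written ATTGG where the match is on the other strand).
Acly, chr11:100528001-100528250, minus strand: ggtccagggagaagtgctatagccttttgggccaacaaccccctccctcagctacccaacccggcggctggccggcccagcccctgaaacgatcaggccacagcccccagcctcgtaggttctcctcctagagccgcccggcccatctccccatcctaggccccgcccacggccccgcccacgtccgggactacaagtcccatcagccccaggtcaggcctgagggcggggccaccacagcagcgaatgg
Fasn, chr11:120824548-120824797, minus strand: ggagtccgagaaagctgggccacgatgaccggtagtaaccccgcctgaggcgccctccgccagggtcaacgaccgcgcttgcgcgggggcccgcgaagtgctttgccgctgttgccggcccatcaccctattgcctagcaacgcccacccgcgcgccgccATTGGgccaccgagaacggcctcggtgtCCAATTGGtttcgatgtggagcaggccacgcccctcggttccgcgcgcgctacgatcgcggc
Thrsp, chr7:97417551-97417800, minus strand: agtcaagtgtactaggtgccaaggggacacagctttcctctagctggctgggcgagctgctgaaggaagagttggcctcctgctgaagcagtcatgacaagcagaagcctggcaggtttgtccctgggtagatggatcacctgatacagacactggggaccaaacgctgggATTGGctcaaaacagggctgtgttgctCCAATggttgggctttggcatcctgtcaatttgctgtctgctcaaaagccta

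In all, 3 motifs were searched on both strands in these windows: the E-box CACGTG, the sterol-element-like TCACNCCAC and CCAAT. Fasn had 3 CCAAT matches, a pair of them overlapping on opposite strands, Thrsp had 2 and Acly had none. Of the 16 list genes with an entry in the table, 10 had a CCAAT match, 3 an E-box and 1 the sterol-element-like motif. Over the 32851 windows of all genes the shares were 33.8%, 6.02% and 1.05%. Some list genes have more than 1 window, and a match is a description of letters, not of binding.

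Among thermogenic genes Cidea, a lipid droplet protein of brown and beige fat, had lean values of 326, 309 and 168 CPM. The obese values ran from 0.997 through 3.81 to 6.42 CPM, and it fell by 6.29 (SE 0.390, adjusted p = 6.7e-07). Cpt1b, which carries fatty acids into mitochondria, stood at 65.1, 37.0 and 25.6 CPM in lean pads and at most 11.6 in obese pads, and fell by 2.68. The lean values follow the muscle sum in their first place, since lean anti-PD-1 2 was highest. Cpt1b also works in muscle, and the part of muscle RNA in its value was not tested beyond the fit with a muscle covariate, where it stayed called. Elovl3 fell by 6.87 and the uncoupling protein gene Ucp1 by 7.06, the latter from 215, 52.4 and 16.0 CPM to at most 5.05. Of 14 members tested 9 fell and none rose (median -2.78), among them Cox8b and Fabp3, which are also muscle genes. The regulators Ppargc1a (-0.10) and Prdm16 (0.44) did not pass.

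The respiratory chain moved less and more evenly. Sdhb, the iron-sulfur subunit of complex II, was 262, 262 and 249 CPM in lean and 63.7 to 116 CPM in obese pads, and fell by 1.78 (SE 0.177, adjusted p = 4.5e-05). Uqcrc2 of complex III fell by 1.48, from 275, 261 and 282 CPM to between 83.1 and 152. In both genes every obese pad lay below every lean pad. Of the 22 nuclear-encoded genes on this list 21 fell, and 20 or 21 fell with any 1 library left out. The median was -1.49, and Etfdh alone did not pass (-0.53, adjusted p = 0.098).

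Sterol synthesis fell in part. Fdft1, the squalene synthase, fell by 1.59 (SE 0.184, adjusted p = 1.1e-04) from 95.3, 184 and 169 CPM to between 51.1 and 68.5. Of 17 cholesterol genes 8 fell and none rose (median -0.98), a count of 4 without lean anti-PD-1 4. In triglyceride synthesis Agpat2 fell by 2.78 and Mogat1 by 2.43, with 4 of 10 members lower, and 2 without lean anti-PD-1 4. Dgat2 (-0.20), which closes the triglyceride, did not pass.

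Fat cell identity genes were split. Adipoq (adiponectin) was 2322, 1615 and 2924 CPM in lean and 996, 2373 and 3320 CPM as the lowest, median and highest obese values, an overlap with no detectable difference (-0.27, SE 0.338, adjusted p = 0.61). Plin1, which coats the lipid droplet, was at 1452, 956 and 1841 CPM and at 628, 2114 and 3034 CPM (0.32, SE 0.381, adjusted p = 0.59). With these SEs, changes of under 1 log2 unit in either gene could have been missed. Retn (resistin) fell by 1.92 (adjusted p = 0.0030), the insulin-regulated glucose carrier Slc2a4 by 1.52 and the beta-3 adrenergic receptor gene Adrb3 by 2.02. The Slc2a4 call was lost without lean anti-PD-1 4 and the Adrb3 call without lean IgG2a 5. Of 16 identity genes 6 fell and none rose (median -0.49), a count of 3 without lean anti-PD-1 4.

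Markers of depot enlargement rose. Lep, the satiety hormone leptin, stood at 294, 66.2 and 346 CPM in lean pads and ran from 946 through 4442 to 6514 CPM in obese pads (3.87, SE 0.726, adjusted p = 0.0034). Sfrp5, a secreted Wnt antagonist, was at 4.04, 0 and 23.3 CPM and at 391 to 1026 CPM (6.18, SE 1.32). Npr3, the clearance receptor of natriuretic peptides, rose by 3.85 (SE 0.568) and Bmp3 by 3.32 (SE 0.440). No obese pad overlapped a lean pad in any of these. Of 8 members tested 6 rose and none fell (median 3.58), and the same count was found with each library left out. Mest, an imprinted gene induced as fat cells enlarge, was 89.9, 0.867 and 42.3 CPM in lean pads, lowest in lean anti-PD-1 4 as were Lep, Bmp3 and Npr3.

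Among secreted factors Rbp4, the retinol carrier, fell by 1.76 from 550, 509 and 502 CPM to between 143 and 266. Cfd, the complement factor adipsin, fell by 2.34, which did not pass once lean IgG2a 5 was left out. In the adipokine list 4 of 14 rose and 4 fell (median 0.50), and 2 rose and 2 fell without lean IgG2a 5. In insulin signalling Grb14, an inhibitor of the insulin receptor, rose by 1.15 and Irs2 by 1.05, with 3 of 12 higher and 1 lower, while no member rose without lean anti-PD-1 2 or without lean anti-PD-1 4. Irs2 lost its call without any 1 of 9 of the 12 libraries and with antibody as a term.

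**Figure D2:**
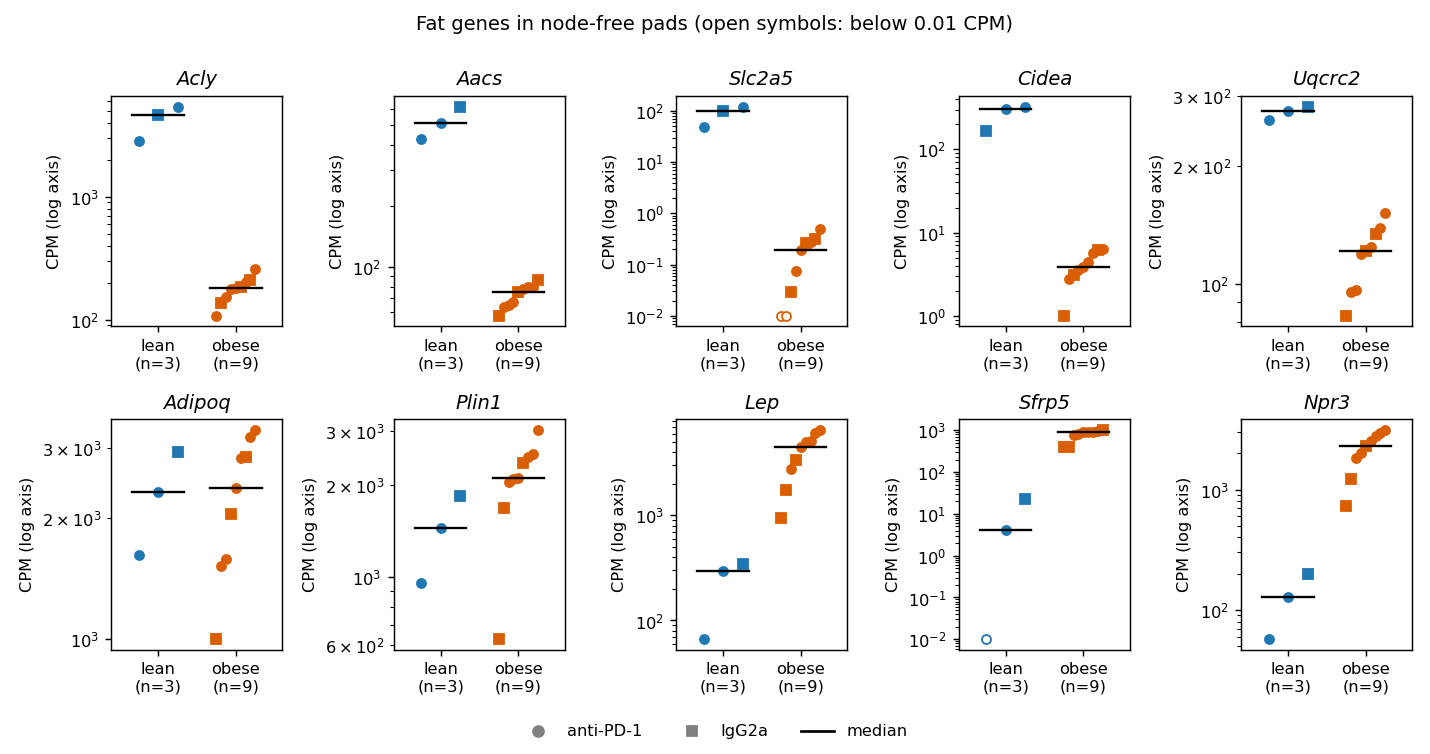
CPM of 10 genes in the 3 lean and 9 obese node-free libraries, on log axes. Points are libraries offset in order of value, circles are anti-PD-1 and squares IgG2a, and black bars are medians. Acly, Aacs, Slc2a5, Cidea and Uqcrc2 are lower and Lep, Sfrp5 and Npr3 higher in every obese library, while Adipoq and Plin1 overlap.

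Some of the largest rises were of genes on none of the gene lists used here. Itgad, the CD11d integrin chain, was 0, 0 and 0.311 CPM in lean and 6.86 to 50.6 CPM (median 40.4) in obese pads (7.96, SE 1.18, adjusted p = 9.2e-04). Its gene lies next to Itgax on chromosome 7 (128154376 to 128223816, with Itgax ending at 128150657). Cacna1e, a voltage-gated calcium channel subunit, was 0.700, 0.0321 and 1.84 CPM and 38.7 to 168 CPM, and rose by 6.44 (SE 0.973, adjusted p = 0.0011). Tph2, which makes serotonin in neurons, was at most 0.336 CPM in lean and 4.02 to 66.4 CPM in obese pads, a rise of 6.62. The GABA receptor gene Gabrr2 rose by 6.03 and the lipase gene Lipf by 5.57. Every obese pad exceeded every lean pad in all 5. The histone gene Hist2h2aa1 was listed at 0 in the lean pads and at 5.69 to 39.5 CPM in obese pads, at least 512-fold higher by the group mean when the lean level is set to 3 counts in the smallest lean library. It has a near-identical copy, so its value is uncertain.

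In the second set of genes the comparison asked how the resident immune cells of the pad differed with obesity. General macrophage, T cell, B cell and MHC class II genes were mostly not called. Genes of macrophages that take up lipid moved both ways, with 5 of 15 higher and 5 lower. In monocyte attraction 3 of 15 rose and 1 fell. Of 12 MHC class I pathway genes 4 fell and 1 rose. Of all genes tested 8.00% rose and 8.10% fell. In these bulk samples fewer cells of a type and less RNA per cell cannot be told apart.

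Mertk, a receptor by which macrophages engulf dying cells (ENSMUSG00000014361, GRCm38 chromosome 2, 128698956 to 128802894), was 7.62, 4.96 and 10.2 CPM in lean and 20.5, 37.2 and 52.7 CPM (lowest, median, highest) in obese pads. It rose by 1.94 (SE 0.364, adjusted p = 0.0034) and the groups did not overlap. Its ligand gene Gas6 fell by 0.77, a call lost without lean anti-PD-1 2 or 4. Cbr2, found in tissue-resident macrophages, fell by 1.34, a call lost without lean anti-PD-1 4 or lean IgG2a 5. Of 20 resident macrophage genes 2 rose and 2 fell (median -0.16), near the 8.00% and 8.10% of all genes. None fell without lean anti-PD-1 4. Adgre1 (0.88), Mrc1 (0.12) and C1qa (-0.49) did not pass.

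In the lipid-associated macrophage list members moved both ways. Itgax (CD11c; ENSMUSG00000030789) was 4.44, 2.36 and 1.55 CPM in lean and 13.7, 19.6 and 60.7 CPM in obese pads, and rose by 2.87 (SE 0.536, adjusted p = 0.0033). Mmp12, the macrophage elastase, rose by 3.32 (SE 0.559), from at most 4.58 to between 19.8 and 96.4 CPM. Both were highest in obese anti-PD-1 6. Trem2, their lipid receptor, rose by 2.44, a call lost without lean anti-PD-1 4 or lean IgG2a 5, and Gpnmb rose by 2.22. Plin2, a droplet coat protein that fat cells also make, fell by 1.48, and the lysosomal protease gene Ctsd by 1.09, so that 5 of 15 rose and 5 fell (median 0.41). Without lean IgG2a 5, 3 were higher and 3 lower, and without lean anti-PD-1 2, or without lean anti-PD-1 4, 2 were lower. Ctsd lost its call without lean anti-PD-1 2.

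Monocyte attraction was uneven across pads. Ccl2 was 0.843, 0.546 and 0.621 CPM in lean and 2.17, 9.43 and 57.2 CPM in obese pads, and rose by 4.70 with a wide error (SE 1.13, adjusted p = 0.014). Its call, like that of Ccl7 (3.06), was lost without any 1 of the 3 lean libraries and within the anti-PD-1 pads alone. Csf1, the macrophage growth factor, rose by 1.33 (lost without lean anti-PD-1 4 or lean IgG2a 5) and the attractant Cx3cl1 fell by 1.04 (lost without lean anti-PD-1 2 or 4). Of 15 members 3 rose and 1 fell, with a median of 0.96 that was 0.08 in the anti-PD-1 pads alone and 0.46 without obese IgG2a 2 and 5, an alternative added after the data were seen. Those 2 pads are the ones with high cell cycle genes, whose list median was 2.27 (0 of 17 called) and 0.40 without them. Their part in the chemokine levels was not tested beyond that fit.

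Neutrophil genes had a median of 3.20, with 2 of 12 called, Cxcl2 (4.55) and the calprotectin gene S100a8 (3.61), where 8.00% of all genes were called higher. The Cxcl2 call was lost without lean anti-PD-1 2 or 4, and the S100a8 call without any 1 of 9 libraries. Both were lost in the anti-PD-1 pads alone and with voom, and Cxcl2 also with the muscle score as a covariate. S100a8 was at most 0.795 CPM in lean pads and 1.68 to 22.2 CPM in obese ones, so levels were low throughout. Complement genes had 3 of 12 higher, against the same 8.00%, and 1 without lean anti-PD-1 2. C4b rose from 230, 146 and 316 CPM to between 623 and 1123 CPM (1.62, SE 0.277, adjusted p = 0.0019). Serping1 rose by 1.56, a call lost without lean anti-PD-1 2 or 4, and Cfb by 0.63, with a list median of 0.56. Cfb lost its call without any 1 of 10 of the 12 libraries.

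MHC class I genes present peptides to CD8 T cells. H2-T23, the nonclassical Qa-1 chain (ENSMUSG00000067212, GRCm38 chromosome 17, 36029773 to 36032855), was 206, 184 and 134 CPM in lean pads and 62.1, 95.3 and 148 CPM in obese pads. Only the highest obese pad exceeded the lowest lean one, and H2-T23 fell by 1.13 (SE 0.194, adjusted p = 0.0019). Psmb8, a subunit of the immunoproteasome that cuts peptides, fell by 1.07 (SE 0.198, adjusted p = 0.0030) from 123, 142 and 81.8 CPM to between 53.6 and 98.4. The peptide pump gene Tap2 fell by 0.93, and H2-K1 by 1.04, the latter a call lost without lean anti-PD-1 4. Nlrc5, the transcriptional activator of this pathway, rose by 1.29 (also lost without lean anti-PD-1 4), so that 4 of 12 fell and 1 rose (median -0.64). In these genes the obese and lean ranges lay within a few-fold of each other. Epithelial cells also make class I. With the epithelium score as a covariate none of the 12 was called (median -0.58), where 170 of all 19067 genes were. The epithelium genes themselves differed with diet (median -1.86), so this fit cannot separate epithelium from diet. The part of epithelium in the class I values was not tested.

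Of 10 MHC class II genes none was called by edgeR (median -0.26), 2 had an unadjusted p under 0.05 and DESeq2 called 1 higher. H2-Ab1 was 176, 156 and 159 CPM in lean and 84.1 to 205 CPM (median 163) in obese pads, an overlap (-0.39, SE 0.252, adjusted p = 0.29). Of 18 T cell genes edgeR called none, 1 had an unadjusted p under 0.05 and DESeq2 called 1 lower. They summed to 17.1 to 26.1 CPM in lean and 10.5 to 32.6 CPM in obese pads. The receptor chain gene Trac was 2.65, 5.71 and 2.43 CPM and 0.721 to 2.71 CPM (-1.63, adjusted p = 0.057). edgeR called none of 11 B cell and none of 13 cytotoxic lymphocyte genes, with 1 in each list at an unadjusted p under 0.05 and 1 in each called higher by DESeq2. With levels this low such tests miss all but large changes. Irf4, a factor of plasma cells, macrophages and fat cells, was the 1 called member of 13 in the plasma cell list, near the 8.10% of all genes. It was 9.25, 28.4 and 17.4 CPM in lean and 2.29 to 4.90 CPM in obese pads, and fell by 2.49 (SE 0.315, adjusted p = 2.2e-04), while the joining chain gene Jchain (-1.44) did not pass.

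Genes of inhibitory receptors bear on the antibody used. Pdcd1, which encodes PD-1, was at most 0.413 CPM in lean and 1.08 CPM in obese pads, too low to compare. Its ligand gene Cd274 was 21.4, 16.6 and 22.7 CPM and 21.5 to 41.0 CPM (0.30, SE 0.197, adjusted p = 0.30). Lag3 was 10.5, 14.9 and 10.6 CPM in lean and 1.68 to 5.53 CPM in obese pads, and fell by 1.94 (SE 0.331, adjusted p = 0.0018). Vsir, which encodes the checkpoint protein VISTA, was 119, 95.3 and 118 CPM in lean and 210 to 367 CPM in obese pads, and rose by 1.11 (SE 0.227, adjusted p = 0.0054). These were the 2 called members of 12, 1 in each direction (median 0.30), near the 8.00% and 8.10% of all genes. Between antibodies, 0.687% of genes passed within the node-free pads with diet in the model (131 genes, 2 higher and 129 lower with anti-PD-1), a count that ran from 0 to 790 with 1 library left out. Each of the 6 obese libraries whose removal left no gene called by edgeR left 1293 to 2346 genes at an unadjusted p under 0.05. The fewest were left without obese IgG2a 5 (1293) and without obese IgG2a 2 (1766). These are the pads with high cell cycle sums (1255 and 968 CPM). Their part in the 129 lower genes was not tested.

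Interferon-induced genes had 1 of 19 called, where 8.10% of all genes were called lower. This gene, Ifit3, was 186 CPM in lean anti-PD-1 2 and 47.5 and 25.9 CPM in the other lean pads. In obese pads it was 17.4 to 51.0 CPM. Its call ended without lean anti-PD-1 2, and its fold change was -1.58. The list median of -0.39 was 0.10 without that library.

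The matrix between cells was the other compartment that rose. Thbs2, a secreted thrombospondin, was 81.5, 11.2 and 69.3 CPM in lean and 237, 382 and 857 CPM in obese pads (2.88, SE 0.549, adjusted p = 0.0037). Col5a1, a chain of fibrillar collagen V, rose by 1.66 (SE 0.289, adjusted p = 0.0021) from 114, 48.7 and 90.9 CPM to between 250 and 445 CPM. Thbs1 rose by 2.37 and Col6a1 by 1.65, the latter a call lost without lean anti-PD-1 4. Sparc rose by 1.29, lost without any 1 of 9 libraries, and Mmp3, a matrix protease, fell by 1.36, lost without any 1 of 6. Of 23 matrix genes 8 rose and 1 fell (median 1.18). Without lean anti-PD-1 4, which had the lowest lean level of Thbs2, Col5a1, Thbs1 and Col6a1, 3 rose, and the median was 0.84. Col1a1 (1.16), Col1a2 (0.17) and Col3a1 (0.20), the main fibrillar collagens, did not pass. Progenitor and fibroblast genes had 1 of 15 higher (Pdgfrb, 0.96) and 2 lower (F3 and Lum), and blood endothelium 1 of 14 lower (Emcn, -1.09), near the 8.10% of all genes. Pdgfrb and F3 lost their calls without lean anti-PD-1 2 or 4, Lum without any 1 of 4 libraries and Emcn without any 1 of 5.

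Duct epithelium was lower in obese pads. Krt14, a basal keratin, was 78.5, 153 and 88.2 CPM in lean and 6.32, 11.8 and 30.1 CPM in obese pads (-3.20, SE 0.404, adjusted p = 2.2e-04), and Krt19, a luminal keratin, fell by 2.24. Of 16 epithelium genes 13 fell (median -1.86), 5 without lean anti-PD-1 2 and 6 without lean anti-PD-1 4. Skin genes had 5 of 6 lower, and 2 without lean anti-PD-1 4. They summed to 7.08 CPM in lean anti-PD-1 2, within the obese range of 5.59 to 21.8, and to 61.4 and 149 CPM in the other lean pads. Of 13 skeletal muscle genes 12 fell, but none fell without lean anti-PD-1 2. Myh4, a fast myosin, was 662 CPM there, 0 and 1.67 CPM in the other lean pads and at most 0.836 CPM in obese pads.

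**Figure D3:**
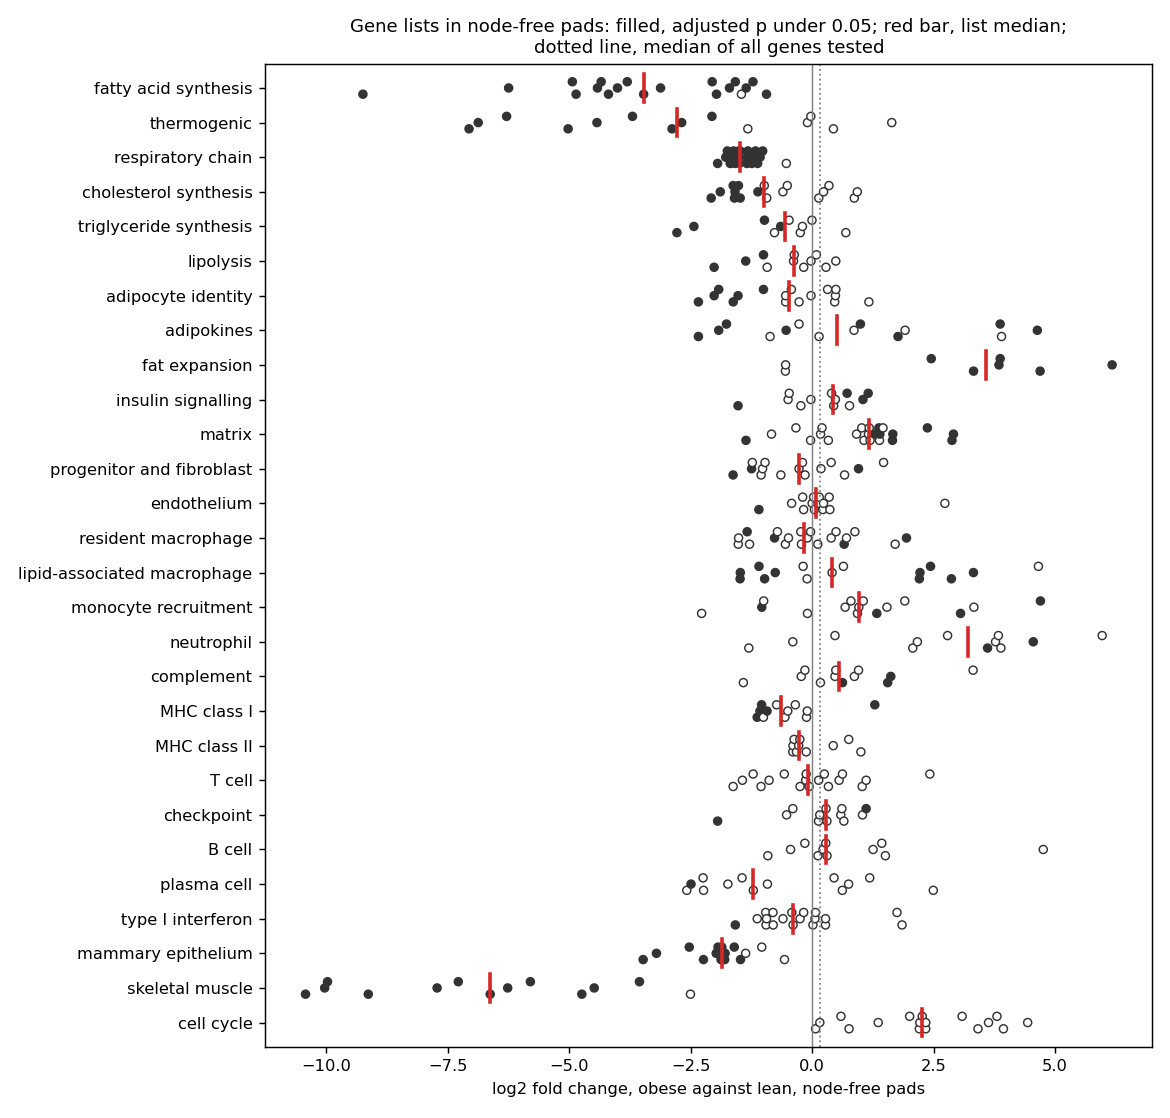
Log2 fold change, obese against lean, of each tested member of 28 gene lists in node-free pads. Filled points passed at an adjusted p under 0.05, open points did not, red bars are list medians and the dotted line is the median over all genes (0.15). Fatty acid synthesis (median -3.47) and the respiratory chain (-1.49) lie wholly below 0, fat expansion has a median of 3.58, and MHC class II and T cell genes hold no filled point.

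The last comparison asked whether obesity had the same effect in the libraries with node RNA, none of which is among the 12. There 11.4% of 18658 genes tested rose and 13.2% fell. Genes called lower overlapped more than genes called higher: of genes tested in both sets, 781 were lower in both, which is 50.8% of those lower without a node and 32.0% of those lower with one. Higher in both were 211, or 14.9% and 10.3%. Across the 17555 genes the fold changes correlated with r = 0.375 (rho = 0.300), a description across genes, which are not independent. The difference itself was tested in 1 model over the 23 libraries, where 4.31% of 21321 genes had a more positive and 4.22% a more negative change without a node.

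Fatty acid synthesis and respiratory chain genes fell in both sets (18 and 19 of 19, and 21 and 20 of 22, without and with a node). Acly fell by 4.88 in node-containing pads and differed by -0.05 between sets (SE 0.382, adjusted p = 0.97), and Aacs fell by 3.09. The respiratory chain had no called difference among 22 genes. Fatty acid synthesis had 2 of 19, among them Scd1, a desaturase that fell by 1.58 without a node and by 4.25 with one (difference 2.60, adjusted p = 0.021, and 0.060 without lean anti-PD-1 4). Its call without a node was lost without any 1 of 9 of the 12 libraries and in the anti-PD-1 pads alone. In other fat lists the change was more positive without a node for 3 of 10 triglyceride synthesis and 3 of 17 cholesterol synthesis genes. The same was found for 2 of 14 thermogenic, 2 of 14 adipokine and 2 of 12 insulin signalling genes. None was more negative in those lists, while lipolysis had 1 of 11 in each direction. Without obese IgG2a 3 the triglyceride, thermogenic and adipokine counts were 0 and the cholesterol and insulin counts 1. Without lean anti-PD-1 4 the triglyceride and adipokine counts were 0. With a filter of 1 CPM in 3 libraries the triglyceride count was 4 and the cholesterol count 6. Lep rose by 1.69 with a node, and its difference of 2.10 did not pass (adjusted p = 0.097).

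Immune genes differed. H2-T23 was 198 to 409 CPM (median 265) in lean and 463, 504, 527 and 613 CPM in obese pads with a node, where it rose by 0.72. The difference was -1.93 (SE 0.267, adjusted p = 5.3e-04). Psmb8 rose by 0.90 there, with a difference of -2.04 (SE 0.287, adjusted p = 6.2e-04), and H2-Ab1 rose by 1.02 with a difference of -1.48 (adjusted p = 0.028, lost without any 1 of 10 libraries). Irf4 did not pass with a node (0.36), and its difference was -2.93 (SE 0.386, adjusted p = 4.4e-04). Lag3 had a difference of -2.13 (adjusted p = 0.0055). In all, 6 of 12 MHC class I and 5 of 10 class II genes had a more negative change without a node, and none a more positive one. The class I count was 3 without lean anti-PD-1 4. The class II count was 0 without lean anti-PD-1 4, at most 3 without any 1 of 18 of the 23 libraries, 2 with a filter of 1 CPM in 3 libraries and 3 with other size factors. Node RNA itself moved with diet in those pads: the B cell list summed to 422 to 2627 CPM in lean and 2653 to 5022 CPM in obese ones, and its part in the differences was not tested.

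Mertk went the other way. It had no detectable change with a node (-0.06), and its difference was 1.93 (SE 0.451, adjusted p = 0.012). Itgax rose by 0.90 without passing there, and its difference of 1.89 did not pass (adjusted p = 0.062). Macrophage genes as lists did not share the direction of Mertk. Of 20 resident macrophage genes 1 had a more positive and 3 a more negative change without a node (median -0.43). The 3 became 0 without lean anti-PD-1 4. With a node 9 of these 20 rose and 1 fell, where 11.4% and 13.2% of all genes did. In the lipid-associated macrophage list 1 of 15 differed in each direction. Of 23 matrix genes 11 had a more positive change without a node and none a more negative one. The count was 6 without lean anti-PD-1 4, 6 without obese IgG2a 3 and 7 without obese IgG2a 1, and without obese IgG2a 5 it was 13, with 1 gene more negative. Hspg2, the basement membrane proteoglycan perlecan, was 265, 200 and 271 CPM in lean and 929 to 1613 CPM in obese pads without a node (2.11, SE 0.290, adjusted p = 4.1e-04). With a node it was 129 to 299 CPM in lean and 107, 127, 145 and 250 CPM in obese pads, and the difference was 2.67 (SE 0.423, adjusted p = 0.0027). Col5a1 differed by 2.16 (SE 0.391, adjusted p = 0.0051) and Tjp1, a tight junction scaffold, by 2.15. Rassf2, a Ras-association protein, fell by 1.79 without a node, did not pass with one (0.37) and differed by -2.24 (adjusted p = 4.4e-04).

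The split of these differences depended on the setting. Of 1819 called differences 50.6% were more positive, against 71.3% of 2409 with the filter of 1 CPM. The median over all genes was 0.26 with that filter in place of 0.18. With 1 library left out the share ran from 46.9% (without obese IgG2a 3) to 74.8% (without lean IgG2a 5). The median over all genes then ran from 0.12 to 0.52. Of the 33 named differences 20 kept their call and none changed sign in any alternative run.

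**Figure D4:**
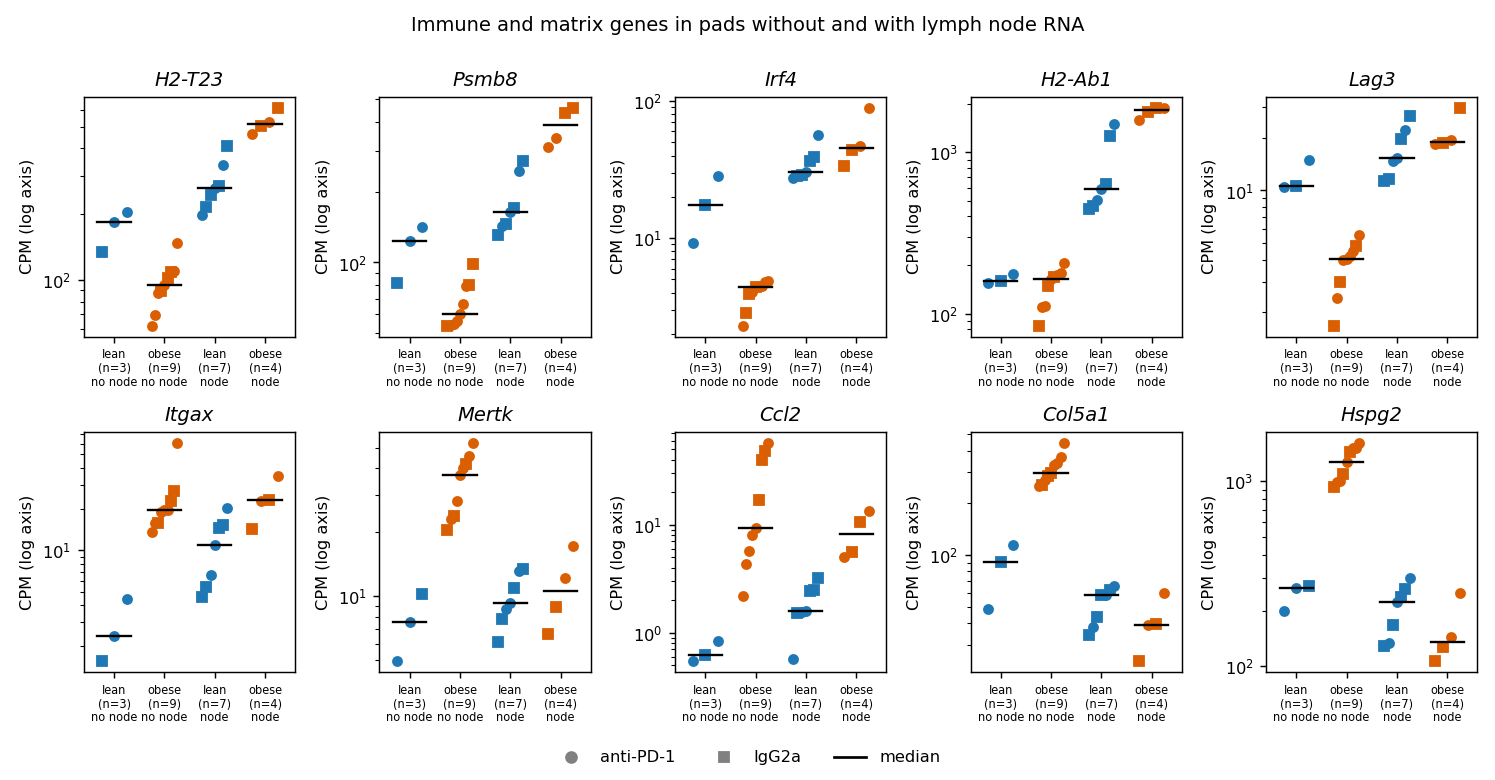
CPM of 10 immune and matrix genes in lean and obese pads without a node (3 and 9 libraries) and with one (7 and 4), on log axes. Points are libraries offset in order of value, circles are anti-PD-1 and squares IgG2a, and black bars are medians. H2-T23, Psmb8, Irf4 and Lag3 have lower medians in obese than in lean pads without a node and not with one, while Mertk, Col5a1 and Hspg2 are higher in every obese pad without a node.

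**Figure D5:**
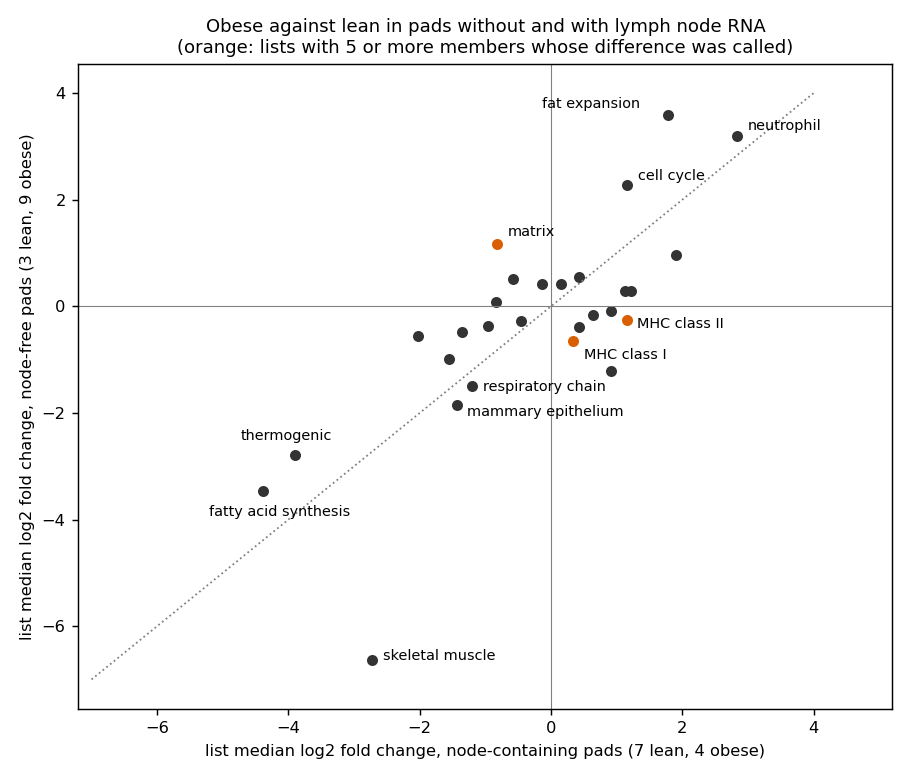
Median log2 fold change, obese against lean, of 28 gene lists in node-containing pads (horizontal) and node-free pads (vertical), with the line of equal change dotted. Orange lists had at least 5 members with a called difference: matrix lies above the line (1.18 against -0.83), and MHC class I (-0.64 against 0.34) and class II (-0.26 against 1.15) lie below it.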

How the data were processed

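RNA selected for poly(A) tails was read from tumor-adjacent fat, with a kit that keeps no strand, from RNA of integrity number above 5, per the labels' protocols. The authors deposited estimated counts for each transcript of each library, and the sources used here do not name the quantification program. The submitters' processing notes name GRCm38, edgeR and limma, without versions. Here the estimated counts were summed by gene over GENCODE M21 (GRCm38; 888 of 115088 transcripts unmatched, at most 0.208% of a library) and rounded to whole numbers, and CPM is relative to each library's own sum. Overlapping and antisense genes cannot be separated without strand, and genes with near-identical copies are uncertain.

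Genes were filtered with filterByExpr (minimum count 10), scaled by TMM and tested with edgeR 4.0.16 (robust quasi-likelihood test, Benjamini-Hochberg adjustment over all genes tested) in R 4.3.3. Obese was compared with lean in the 12 node-free libraries, in the 11 with a node, and as the interaction over 23. Alternatives were DESeq2 1.42.0, limma 3.58.1 (voom with quality weights), other size factors and filters, antibody as a term or each antibody alone, muscle and epithelium scores as covariates, and each library left out.

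The members and the 38 gene lists were chosen with earlier results of these data known. Named genes are the 10 called genes of largest change in each direction (mean of at least 4 CPM), the 3 of smallest p in each list, Adipoq, Plin1, Lep, Pdcd1 and Cd274, and the 5 of smallest p in each direction of the interaction. The text describes part of them, and some genes are not reported here. Fads2, Ucp1, Cox8b, Fabp3, Etfdh, Mest, Irs2, Cfd, Trem2, Gpnmb, Ccl7, H2-K1, Nlrc5, Fasn, Thrsp, Scd1, Col6a1, Sparc, Mmp3, Ctsd and the members given as not passing were chosen after their values were seen, as were Col6a2, Col4a2, Tnc, Apln, Atp6v0d2, Krt8 and Krt18.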

Additional observations from a re-analysis of the deposited data

Results flagged for a closer look

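In 19 of 127 named genes 1 obese node-free library lay far from the other 8. Chance meets the rule used in about 1 in 20 groups of normally distributed values. That rate was not checked for CPM values, which can be skewed. Obese IgG2a 5, the library with liver genes, held 8 of the 19 genes. It was lowest for Slc2a4 (61.71 CPM, next 155.8), Pnpla2 (804.8, next 1681) and Isyna1 (5.224). It was highest for Fads2 (83.09), the clotting factor gene F10 (61.47, next 6.27), Mical2 (114.5), Tnc (132.4, next 37.22) and Mmp3 (69.11). Obese anti-PD-1 6 was highest for the macrophage genes Mmp12 (96.42, next 39.17), Itgax (60.7, next 27.02) and Atp6v0d2 (24.81), and for Gpr50 (41.14). Obese anti-PD-1 8 was highest for S100a8 (22.18), F3 (97.37) and Krt19 (481.8). Obese anti-PD-1 5 was highest for Krt5 (44.33), obese anti-PD-1 7 for Krt15 (2.065) and Krt77 (0.3934), and obese anti-PD-1 1 for Ucp1 (5.053).

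The change with obesity differed between pads without and with a node, by the interaction in edgeR, for 33 named genes. Values are the log2 change without a node minus that with one. Among immune genes it was more negative for H2-Ab1 (-1.48), H2-T23 (-1.93), H2-K1 (-1.28), Psmb8 (-2.04), Tap2 (-1.25), Trac (-2.41), Lag3 (-2.13), Cd79a (-2.45), Irf4 (-2.93), the mast cell tryptase gene Tpsb2 (-2.72) and Irf7 (-1.77). It was more negative too for Mmrn1 (-3.66), Rassf2 (-2.24), Arpc5l (-1.59) and Isyna1 (-2.23). Of the named macrophage genes it was more positive for Mertk (1.93) and Gpnmb (1.58). On the whole resident macrophage list 1 of 20 was more positive and 3 were more negative. In integrin and channel genes the change was more positive for Itgad (4.94) and Cacna1e (5.25). Matrix and stromal genes with a more positive change were Col5a1 (2.16), Col6a1 (2.38), Col6a2 (2.31), Col4a2 (2.40), Sparc (1.84), Tnc (2.44), Hspg2 (2.67) and Pdgfrb (1.26). The others were Apln (2.26), Scd1 (2.60), Pm20d1 (3.45), Tjp1 (2.15), Mical2 (2.55) and Atn1 (1.28). Of the 33, 13 lost the call in at least 1 alternative.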

How the results depend on the processing

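Of 3071 genes called between obese and lean node-free pads, the count was 4 in IgG2a pads alone (1 lean library, whose spread is taken from the obese ones), 4928 with DESeq2 (59.6% higher, against 49.7%), 1798 with the muscle score and 170 with the epithelium score as a covariate. It ran from 1192 without lean anti-PD-1 4 to 3724 without obese IgG2a 5, and was 1673 without lean anti-PD-1 2. The count in node-containing pads ran from 2450 without obese IgG2a 3 to 5350 with 1 library left out, that of differences from 614 without lean anti-PD-1 4 to 2408 (973 and 802 without obese IgG2a 1 and 3), and that of the antibody comparison from 0 to 790 (without lean IgG2a 5). The causes were not tested.

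Signs changed as follows. Under the epithelium score Plin1 was -0.17, Gata3 0.355, Myh4 0.105, Ckm 0.76, Krt8 0.54 and Krt18 0.35. In IgG2a pads alone Plin1 was -0.64, Ifit3 0.41 and Irf7 0.66, and in anti-PD-1 pads alone Adipoq was 0.12, Pm20d1 0.044 and Pdcd1 -1.67. Pdcd1 was -0.85 with antibody as a term, -0.87 with voom and -0.041 to 3.32 with 1 library left out.

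Of 110 called genes named, 61 kept the call with every library left out, and 59 in every setting other than IgG2a pads alone and the epithelium score. No called gene kept it in all settings. Of 1026 list medians recomputed, 957 stayed within the spread of the libraries. Defining the node-free set by Glycam1 below 1 CPM, or by a mean over B cell genes below 10 CPM, gave the same 12 libraries. No paired analysis was possible because the labels give no replicate numbers. With 3 lean libraries, 1 of them rich in muscle RNA, small changes and low genes such as Pdcd1 could not be resolved.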
